A study of Mus musculus with 10 samples.

Results

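Erythropoietin (EPO) treated progenitor cells were sorted on day 3 into a fraction with little surface Sca1 and one with much, and the transcripts of the Sca1-low fraction were compared here with those of the Sca1-high fraction. The cells were EML-C1, a mouse blood progenitor line held at ATCC. Sca1-low and Sca1-high cells had been cultured for 3 days with 10 ng/ml EPO, and each fraction was hybridised to 1 array of the same slide. The other 8 of the 10 arrays were Sca1-low and Sca1-high cells of day 3 given IL-3 (10 ng/ml) with all-trans retinoic acid (10 µM) or both sets of factors together (combined treatment), cells of day 6 under each of the 3 treatments, and untreated cells of day 0. GM-CSF (10 ng/ml) joined IL-3 and retinoic acid only after day 3, so the day 3 arrays named IL-3/GM-CSF had not seen it. The labels give neither the sorting gates nor a Sca1 fraction at day 6, and the line is kept in BHK/MKL conditioned medium, which all groups share. A second set of experiments named in the design text was not analysed here.

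A gene counted as different when its signals were at least 2-fold apart and the brighter spot was well above background by the scanner software. Levels are log2 intensities relative to the 75th percentile of their array, and differences are Sca1-low minus Sca1-high on that log2 scale unless a fold is named. Of 20508 named genes measured on all 10 arrays, 13391 were well above background in at least 1 of the 2 fractions, and 4147 of those (31%) were at least 2-fold apart. Of the 13391, 1942 genes (14.5%) were higher in Sca1-low cells and 2205 (16.5%) were lower. With 1 array a side there is no replicate error and no test of this pair. The only spread that could be measured was that of spots printed 10 times on each array. For a difference between the 2 arrays it gave a technical SD of 0.13 log2 at the median probe and 0.40 at the 95th percentile. This SD was taken over probes above background on both arrays and holds only the spread of spots within an array.

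EPO acts through its receptor, the kinase JAK2 and the factor STAT5, and keeps red cell precursors alive while they build haemoglobin. The DNA-binding factors GATA1 and KLF1 switch on the genes for globin, haem enzymes and the red cell membrane as GATA2, KIT and CD34 are lost. Sca1 is a surface protein attached by a lipid anchor, encoded by Ly6a, and marks mouse stem cells and early progenitors. Other fates open to such progenitors are neutrophils and monocytes, driven by C/EBP factors and PU.1 (Spi1), mast cells, and megakaryocytes.

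The sort was visible in the array data. Ly6a stood at a level of -4.25 in Sca1-low cells, not well above background, against 4.76 in Sca1-high cells, a difference of at least 516-fold. It stood at 3.02 in untreated cells and at -2.57 after 6 days of EPO. In the IL-3/GM-CSF pair its levels were -3.43 in Sca1-low and 2.64 in Sca1-high cells, and in the combined pair -2.80 and 1.89 in the same order, with Sca1-low cells lower in all 3 pairs. Because Sca1 protein chose the fractions, the Ly6a difference describes the sort and is no finding. Bulk RNA cannot tell a fraction with fewer cells of a type from one with less RNA in each cell, and this touches every result below.

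Both EPO arrays of day 3 carried the scanner software's quality mark ExtractionEvaluate, as did 3 other arrays of day 3, and the Sca1-low array was the dimmest of the 10. Its 75th percentile was 309 intensity units, against 617 on the Sca1-high array and 478 to 736 on the others, and 46.5% of its spots were well above background, against 52.0%. Spike-in RNA added in labelling was about equally bright on both, with means of 14.18 in Sca1-low and 13.98 in Sca1-high cells on the log2 intensity scale over 7 probes. Scaling to those probes instead of the 75th percentile lowers every difference by 1.20, moves the median of all genes to -1.07 and counts 522 genes higher and 7131 lower. Directions below are therefore relative to the bulk of transcripts on each array, whose median difference was 0.13. The medians of 18 of the 36 gene lists described here kept their sign under all 7 ways of scaling or probe choice. The 7117 genes above background on neither array differed by 0.82 in the median, which is the offset between the background levels of the 2 arrays.

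**Figure D1:**
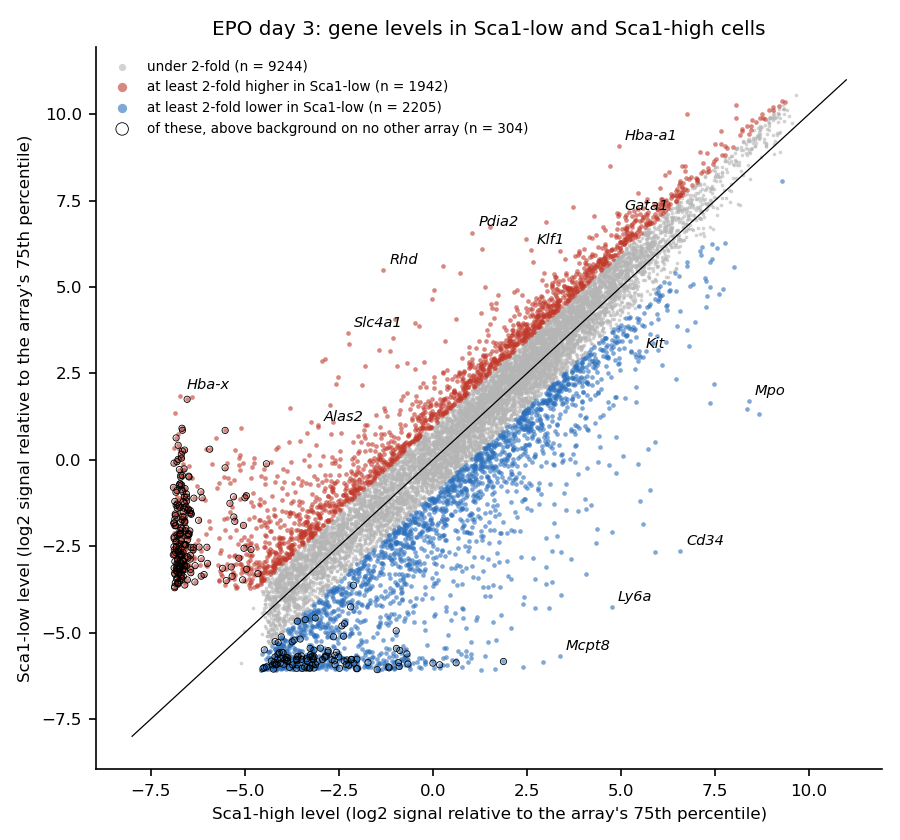
Level of each gene in EPO day 3 Sca1-low cells (vertical) against Sca1-high cells (horizontal), in log2 signal relative to the array's 75th percentile, for the 13391 genes above background in either; the line marks equal levels. Red points (1942) are at least 2-fold higher and blue points (2205) at least 2-fold lower in Sca1-low cells, and circled points are above background on no other array of the 10; red cell genes lie far above the line and Cd34, Ly6a, Mcpt8 and Mpo far below it.

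Epor, the EPO receptor, had a level of 5.38 in Sca1-low cells against 3.23 in Sca1-high cells, 4.44-fold higher. Cish, a feedback inhibitor that STAT5 induces, was 5.29 against 3.69, a 3.02-fold difference, while Socs3, another feedback inhibitor, was 0.33 against 2.34. Of 18 EPO signalling genes above background, 3 (16.7%) were at least 2-fold higher and 3 lower, near the shares over all genes, with a median difference of 0.19 (0.10 after normexp, a model-based background correction followed here by quantile normalization). Bcl6, a repressor that STAT5 is known to hold down, was the furthest apart, at -5.26 in Sca1-low cells, not above background, against 1.00 in Sca1-high cells.

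Erythroid transcription factors were mostly higher in Sca1-low cells, with 15 positive and 5 negative differences. Of 20 above background, 10 were at least 2-fold higher, none was lower by that much, and the median difference was 1.03 (-0.17 under spike-in scaling). Klf1, the factor that activates adult globin and many other red cell genes, had 6.07 in Sca1-low cells and 2.60 in Sca1-high cells, a difference of 3.46. Gata1, the master factor of the lineage, had 7.06 and 4.92 in the same order. Klf3, a repressor that KLF1 activates, and Bcl11a, which silences embryonic and fetal globin, were each higher by 2.07. Tal1, a partner of GATA1, was not among them, with 5.51 in Sca1-low and 6.16 in Sca1-high cells.

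All 9 globin genes above background were at least 2-fold higher in Sca1-low cells, with a median difference of 3.77. Hba-a1, an adult alpha chain, stood at 9.08 in Sca1-low and 4.95 in Sca1-high cells, and at 1.19 in untreated cells. The embryonic chains were among the furthest apart. Hba-x had 1.86 in Sca1-low cells and was not above background in Sca1-high cells (at least 124-fold), and Hbb-bh1 had 6.73 against 1.53. Adult beta chain Hbb-bs had 4.66 in Sca1-low and -0.01 in Sca1-high cells. Globin genes are near copies of each other, so a probe may read several of them.

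Haem synthesis, which makes the iron-holding ring of haemoglobin, had 14 of 22 genes at least 2-fold higher, none lower, and a median difference of 1.57. Alas2, the first and rate-limiting enzyme in red cells, had 0.95 in Sca1-low and -3.07 in Sca1-high cells, 16.2-fold. It was not above background in untreated cells and stood at 4.75 at day 6. Alad (6.39 in Sca1-low, 2.47 in Sca1-high) and Cpox (5.73 and 2.68 in the same order) act later in the pathway. Tspo2, a porphyrin and cholesterol carrier of red cell precursors, had 5.41 in Sca1-low and 0.71 in Sca1-high cells.

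Iron genes were mixed. Of 22 above background, 8 were at least 2-fold higher and 2 lower, with a median difference of 0.94 (-0.26 under spike-in scaling). Slc40a1, the iron exporter ferroportin, had -0.21 in Sca1-low cells against a signal not above background in Sca1-high cells, at least 24.1-fold. Steap3, which reduces iron in the endosome, had 3.45 against 1.42. In the other direction Ncoa4, the receptor that delivers ferritin for breakdown, had 3.19 in Sca1-low and 5.98 in Sca1-high cells, and Hfe, a regulator of iron sensing, was not above background in Sca1-low cells against -2.33.

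Red cell membrane and blood group genes gave the second largest median of the 36 lists, 2.53 (1.51 after normexp), after the globins. Of 26 above background, 21 were at least 2-fold higher and 1, the glucose carrier Slc2a1, was lower. Rhd, the Rh blood group protein, had 5.49 in Sca1-low cells and -1.32 in Sca1-high cells, 112-fold. Slc4a1, the anion exchanger band 3, had 3.66 and -2.27 in the same order, 61.1-fold. Gypc, a glycophorin of the membrane skeleton, had 2.39 in Sca1-low and -2.51 in Sca1-high cells, and Ank1, the ankyrin that ties band 3 to spectrin, had 0.04 against a signal not above background. A list of other red cell genes, like all 36 written with earlier results of these data known, had 21 of 32 higher and 3 lower. The higher ones were led by the amino acid carrier Slc38a5 (at least 35.6-fold), Tac2 (55.5-fold), Pdia2 (46.2-fold, and 5.49 log2 by a second probe) and Ces2g (33.5-fold).

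The promoters of 3 of these genes are shown because they carry the GATA motif AGATAA, the core of the site that GATA factors bind. The windows run from 250 bases before to 50 after the first start listed for the gene by RefSeq (GRCm38.p6), are written 5′ to 3′ on the gene's strand, and have the motif in capitals as AGATAA or, on the other strand, TTATCT. Rhd lies on the plus strand at chr4:134864286-134864585, Pdia2 on the minus strand at chr17:26199038-26199337, and Alas2 on the plus strand at chrX:150547167-150547466.
Rhd: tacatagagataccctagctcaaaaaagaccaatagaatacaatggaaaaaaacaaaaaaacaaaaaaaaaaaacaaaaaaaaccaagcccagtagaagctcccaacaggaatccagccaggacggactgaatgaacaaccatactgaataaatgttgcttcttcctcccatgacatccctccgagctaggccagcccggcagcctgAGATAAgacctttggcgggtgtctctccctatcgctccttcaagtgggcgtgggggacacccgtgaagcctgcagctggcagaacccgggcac
Pdia2: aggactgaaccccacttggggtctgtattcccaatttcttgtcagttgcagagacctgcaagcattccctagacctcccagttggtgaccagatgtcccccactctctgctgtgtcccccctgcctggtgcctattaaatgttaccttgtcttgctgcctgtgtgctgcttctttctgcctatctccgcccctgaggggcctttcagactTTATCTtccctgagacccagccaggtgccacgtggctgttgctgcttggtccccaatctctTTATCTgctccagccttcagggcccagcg
Alas2: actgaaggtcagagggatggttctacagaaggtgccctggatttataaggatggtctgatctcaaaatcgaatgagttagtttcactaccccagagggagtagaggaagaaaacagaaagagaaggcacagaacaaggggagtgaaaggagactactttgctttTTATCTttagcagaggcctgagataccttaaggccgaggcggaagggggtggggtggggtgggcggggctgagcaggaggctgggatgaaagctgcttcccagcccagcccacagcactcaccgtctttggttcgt

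In Rhd the motif begins at position -43 from the start, in Alas2 at -86, and in Pdia2 at -40 and 21. Of 48 genes with a promoter entry that were at least 8-fold higher and above background in both fractions, 15 (31.25%) held AGATAA on either strand. The share was 8 of 111 (7.21%) for genes at least 8-fold lower. It was 9.84% for all higher genes, 8.71% for all lower genes, 7.72% for all genes above background in either fraction, and 11.4% for the 27025 promoters of the table. CCNCNCCC, a loose form of the motif that KLF factors bind, was in 27 of the 48 (56.25%), 72 of the 111 (64.9%) and 64.8% of the genes above background. By their letters the 2 motifs cannot share bases on either strand. A match describes these letters and does not show binding.

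Progenitor genes were lower in Sca1-low cells more often than higher: of 34 above background, 17 were at least 2-fold lower and 4 higher, with a median difference of -0.94. Cd34, a surface sialomucin of early progenitors, had the lowest difference of all genes, with -2.64 in Sca1-low and 6.59 in Sca1-high cells (601-fold, and -6.12 log2 by a second probe). Untreated cells had 6.92. Kit, the stem cell factor receptor, had 3.04 in Sca1-low and 5.50 in Sca1-high cells. Gata2, which precedes GATA1, had 3.84 and 5.12 in the same order. Erg, a stem cell factor of the ETS family, was at background in Sca1-low cells against 0.18 in Sca1-high cells, at least 27.8-fold. Of the 4 listed as higher, Hoxb4 was above background on this array only of the 10, and the others were Lmo2, also an erythroid factor, Hoxa7 and Cd27.

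**Figure D2:**
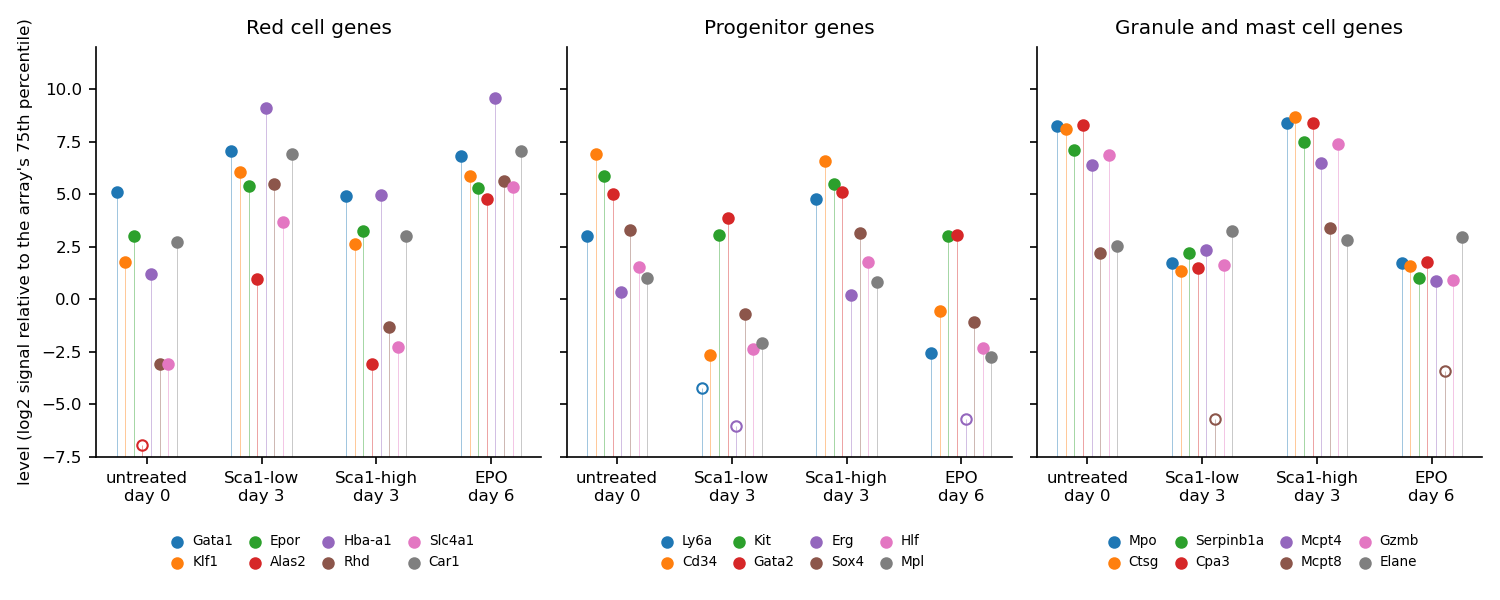
Levels of 24 genes over the EPO arm, in log2 signal relative to the array's 75th percentile, in untreated cells, day 3 Sca1-low, day 3 Sca1-high and day 6 cells (1 array each); filled points are well above background and open points are not. In all 3 panels most Sca1-high points lie near the untreated level and most Sca1-low points near the day 6 level. Elane stays near 3 throughout and Alas2 is higher at day 6 (4.75) than in Sca1-low cells (0.95). Some red cell genes lie above the untreated level in Sca1-high cells too. These are Hba-a1 (4.95 against 1.19), Rhd (-1.32 against -3.11) and Alas2 (-3.07, not above background in untreated cells).

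Primary granule genes of the neutrophil lineage were mostly lower in Sca1-low cells. Mpo, the myeloperoxidase of primary granules, had 1.71 in Sca1-low and 8.40 in Sca1-high cells, 103-fold, with 8.24 in untreated and 1.71 in day 6 cells. Ctsg, cathepsin G, had 1.34 and 8.67 in the same order of fractions, 162-fold, and the protease inhibitor Serpinb1a had 2.20 and 7.47. Of 13 primary granule genes 10 were at least 2-fold lower and 1 higher, with a median difference of -1.41. Elane, neutrophil elastase, was not among them (3.23 in Sca1-low, 2.80 in Sca1-high), and Prtn3, proteinase 3, was the one higher (0.96 and -0.06).

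Myeloid regulators were lower in 10 of 21 cases and higher in 1, the stress factor Cebpb. Gfi1, a repressor needed for neutrophils, and Cebpe, a factor of late granules, were not above background in Sca1-low cells and stood at 0.94 and 1.61 in Sca1-high cells. Cebpa, the factor that starts granulocyte fate, was at least 5.17-fold lower. Spi1 differed by -0.65. Csf2rb2, a beta chain of the IL-3 receptor, had 4.74 in Sca1-low and 7.30 in Sca1-high cells. The receptors Csf3r (6.48 and 6.40 in the same order) and Csf1r (3.38 and 2.82) were level or nearly so.

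Markers of later neutrophils were sparse: of 35 measured, 21 were above background in either fraction, 10 were lower and 3 higher, with a median of -0.78 (-0.36 after normexp). Anxa1, an anti-inflammatory annexin, had -2.41 in Sca1-low and 4.33 in Sca1-high cells, and the lysozymes Lyz1 and Lyz2 and the haptoglobin gene Hp were not above background in Sca1-low cells. Ngp, a granule protein, was above background in Sca1-low cells at -3.15, and not in Sca1-high cells. Of 27 monocyte genes 20 were lower and 1 higher, with a median of -3.02 (-1.32 after normexp). Ccl9, a chemokine, had -3.32 in Sca1-low and 4.09 in Sca1-high cells. Ly6c1, a relative of Ly6a, had -1.20 and 5.52 in the same order (-6.72 in difference, and -2.90 by a second probe). The exception was Marco, a scavenger receptor, with 5.20 in Sca1-low and 2.90 in Sca1-high cells.

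Mast cell and basophil genes were lower in 21 of 24 cases and higher in none, with a median of -2.49. Cpa3, the mast cell carboxypeptidase, had 1.47 in Sca1-low and 8.36 in Sca1-high cells, 119-fold. Mcpt8, a basophil protease, was not above background in Sca1-low cells against 3.38 (at least 255-fold), and Gzmb, granzyme B, had 1.65 against 7.37. The cytokine Il6 had -2.09 in Sca1-low and 4.77 in Sca1-high cells. Untreated cells had 8.28 for Cpa3, 6.86 for Gzmb and 4.47 for Il6, close to the Sca1-high levels. Eosinophil genes (6 of 9 lower, 2 higher) included the receptor subunit Il5ra and the granule gene Prg3, both not above background in Sca1-low cells; one of the 2 higher, Alox15, was above background on this array only.

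Megakaryocyte genes, the sister fate of red cells, were lower in 12 of 25 cases and higher in 1, with a median of -0.83. Itgb3, the integrin of platelets, had -0.95 in Sca1-low and 3.48 in Sca1-high cells, and Ppbp and the serotonin carrier Slc6a4 were not above background in Sca1-low cells against 0.51 and 3.00. Pf4, platelet factor 4, and Itga2b stood at 6.42 and 3.37 in Sca1-low and at 5.71 and 3.74 in Sca1-high cells. The one higher gene, Clu, was above background on 2 arrays of the 10. T and NK genes were lower in 10 of 19 cases and higher in 4. Tcf7 and Gata3, factors of T cell progenitors, were not above background in Sca1-low cells and stood at 1.65 and 1.47 in Sca1-high cells. The Tcf7 difference was -7.70 by measured signal and -3.94 by a second probe. B lymphoid genes split evenly, 3 and 3 of 10, with Ly6d at 4.09 in Sca1-low and 0.61 in Sca1-high cells. As markers of other cell types the lists overlap: Kit and Gata2, for 2, stand in the progenitor and the mast cell list.

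Chemokines and their receptors were lower in 12 of 18 cases and higher in none, with a median of -2.47 (-1.44 with dim genes at their bound and -0.87 after normexp). Cytokine receptors were lower in 20 of 34 cases and higher in 3 (median -1.58). Integrins and adhesion genes were lower in 12 of 24 cases and higher in 1, with a median of -1.07 (-0.58 at the bounds and -0.66 after normexp). Ccr2, a chemokine receptor of monocytes, was at background in Sca1-low cells against -0.20 in Sca1-high cells. The 3 higher receptors were Epor, the interferon receptor chain Ifngr1 and Lifr. Interferon response and class I antigen genes were lower in 17 of 28 cases and higher in none (median -1.29), from Oas2, an antiviral sensor (-3.61 in Sca1-low, 1.60 in Sca1-high), to B2m, the light chain of class I molecules (5.81 and 7.43). Within the Ly6 family the directions differed: Ly6a, Ly6c1, Ly6f and Ly6i were lower, and Ly6d, Ly6k, Ly6g6d, Cd59a and Cd59b higher.

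**Figure D3:**
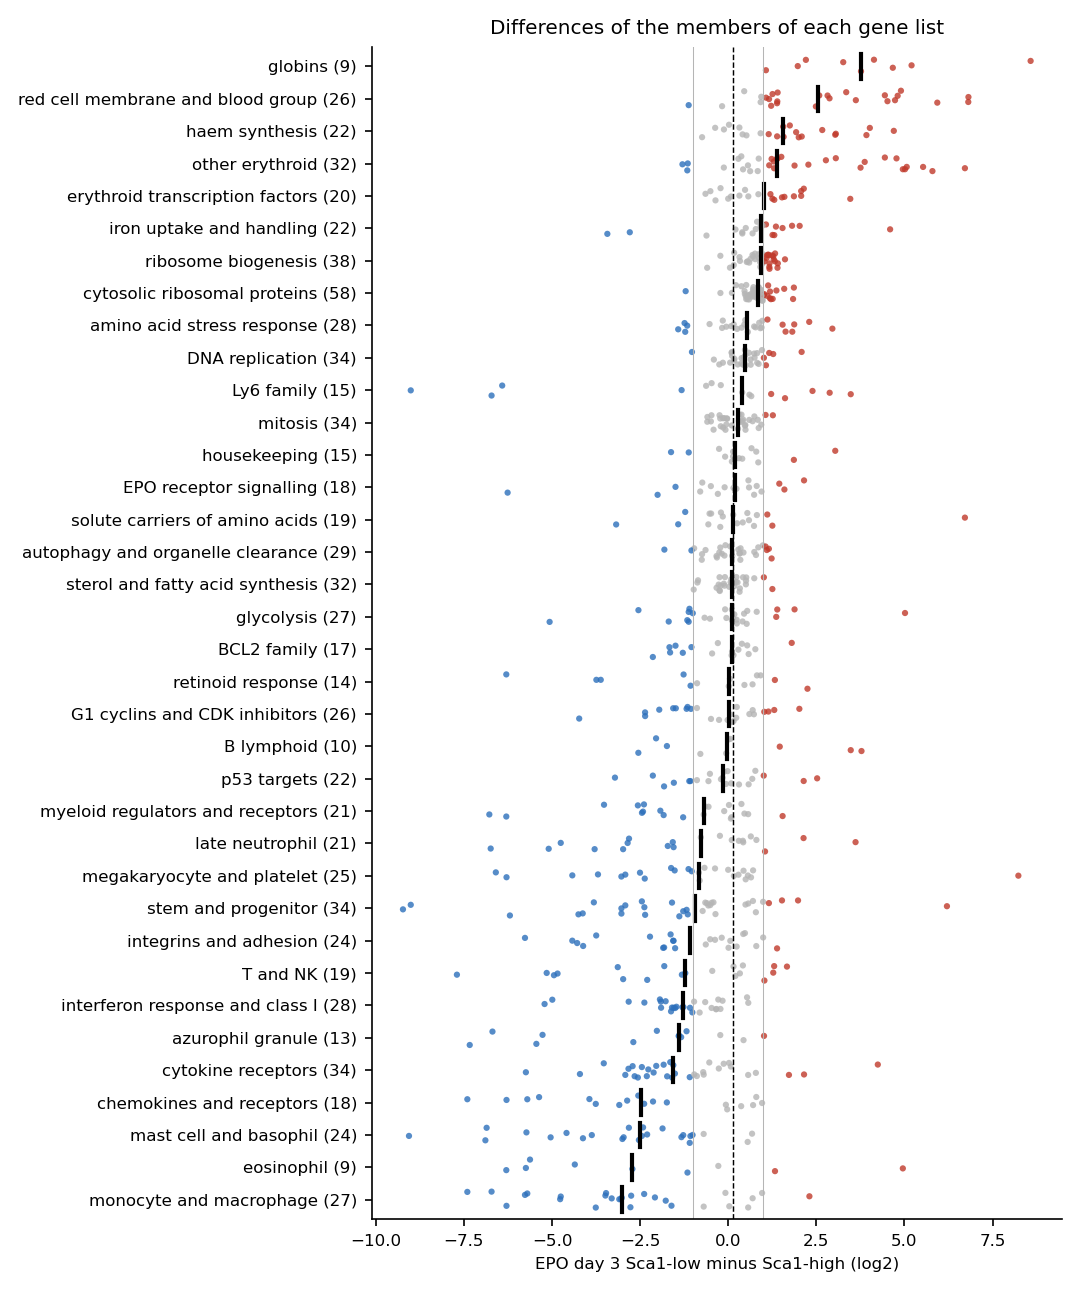
Difference between EPO day 3 Sca1-low and Sca1-high cells (log2, Sca1-low minus Sca1-high) for each gene of 36 lists that was above background in either fraction (number in brackets), lists ordered by median. Red and blue points are at least 2-fold higher and lower, thick bars are list medians and the dashed line is the median of all genes (0.13); globins and membrane genes lie at the top and mast cell, eosinophil and monocyte genes at the bottom.

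Genes of growth and protein synthesis shifted by less, and nearly all in one direction. Of 58 cytosolic ribosomal protein genes, 56 had a positive difference, 12 were at least 2-fold higher and 1 lower, and the median was 0.85. The largest was Rpl13a, with 9.53 in Sca1-low and 7.67 in Sca1-high cells, and its other probes gave 1.31 and 1.55. The list median was 0.04 under quantile normalization, and its sign turned under normexp with quantile normalization (-0.0023) and spike-in scaling (-0.35). Ribosome biogenesis genes had 16 of 38 higher and none lower, with a median of 0.93 (0.54 under quantile normalization and -0.27 under spike-in scaling); Mrto4, a factor of large subunit assembly, had 5.93 against 4.32. Myc, a factor known to drive ribosome production, stood at 5.29 in Sca1-low and 3.27 in Sca1-high cells.

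DNA replication and mitosis genes were mostly level. Of 34 DNA replication genes 5 (14.7%, against 14.5% over all genes) were at least 2-fold higher and 1 lower. Their median was 0.47, and 0.14 under quantile normalization. The furthest apart was Ccne1, the cyclin of S phase entry (6.10 in Sca1-low, 4.02 in Sca1-high). Of 34 mitosis genes 2 were higher and none lower (median 0.29, and -0.04 under quantile normalization), with Cdc20 at 7.89 and 6.63 in the same order. Of 26 G1 genes 4 were higher and 9 (34.6%, against 16.5% over all genes) lower. The kinase Cdk6 had -0.51 in Sca1-low and 1.85 in Sca1-high cells. Cdkn2a, an inhibitor lost in many lines, was at background in Sca1-low cells and in untreated cells and stood at -1.62 in Sca1-high cells.

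Stress and survival genes were divided, beside shares of 14.5% higher and 16.5% lower over all genes. In the amino acid stress response 7 of 28 were higher and 4 lower, with Nupr1 at 4.24 in Sca1-low and 1.29 in Sca1-high cells and Trib3 at 5.83 and 3.53. Of 22 p53 targets 3 were higher and 6 lower, and of 17 BCL2 family genes 1 was higher and 6 lower. The apoptosis gene Pmaip1 had 1.20 in Sca1-low and 3.34 in Sca1-high cells, and Bcl2 itself -0.87 and 0.78. In glycolysis (4 higher, 8 lower of 27) the red cell pyruvate kinase Pklr was at least 31.1-fold higher, while the hexokinases Hk2 (-0.74 in Sca1-low, 1.81 in Sca1-high) and Hk3 (at least 33.6-fold) were lower. Retinoid genes (2 of 14 higher, 5 lower), amino acid carriers (3 and 3 of 19), autophagy genes (4 and 2 of 29) and sterol genes (2 and 0 of 32) had medians between 0.03 and 0.14, and between -0.14 and -0.03 under quantile normalization.

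Of 15 housekeeping genes, 2 were at least 2-fold higher and 2 lower. Their median followed the scaling, with 0.20 here, -0.33 under quantile normalization and -0.34 after normexp. Actb stood at 9.75 in Sca1-low and 9.55 in Sca1-high cells, and Hprt at 6.00 and 5.89. The ribosomal gene Rpl13a, described above, was among the higher ones.

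Part of the higher genes rested on 1 array. Of the 1942 higher genes 445 were not above background in Sca1-high cells, and 194 were above background on no array but the EPO Sca1-low one. Of the 103 that were at least 32-fold higher by measured signal, 58 were such genes. Among those of the naming rule were Olfr395, an olfactory receptor (at least 115-fold), Arl14 (at least 64.6-fold) and Arhgdig (at least 62.0-fold). The EPO Sca1-low array had 58 genes that it alone detected at no less than 32 times the median of the rest, against 2 to 25 on each other array. Of the 2205 lower genes 872 were not above background in Sca1-low cells, 661 of which stayed at least 2-fold lower at their bound, and 110 were above background on the Sca1-high array alone, 6 of them among the 116 at least 32-fold lower. Genes above background on at least 2 arrays numbered 1748 higher and 2095 lower. For genes with another probe above background, that probe had the same sign for 275 of 333 higher genes (82.6%) and 407 of 477 lower genes (85.3%), and was itself at least 2-fold apart for 50.5% and 63.1%. Genes next to the threshold were Ranbp10 inside (1.0001) and Mrpl58 outside (0.9998) on the higher side, and Erap1 inside (-1.003) and Taok2 outside (-0.9988) on the lower side.

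The members were chosen for their distance on 2 arrays, so their place on any other array is a description. Among members above background in both fractions, the day 6 EPO level lay nearer to Sca1-high than to Sca1-low cells for 30.1% of the higher and 16.5% of the lower genes. In untreated cells these shares were 97.4% and 95.6%. On the other 6 arrays they ran over 60.8% to 93.5% for higher and 34.0% to 82.3% for lower genes. Day 6 EPO cells against untreated cells had 30.2% of 13123 genes at least 2-fold apart, 13.5% higher and 16.8% lower. Of the genes higher in Sca1-low cells 952 (49.0% of them and 53.9% of that list) were also at least 2-fold higher at day 6, and 33 were lower. Of the genes lower in Sca1-low cells 1543 (70.0%, and 70.1% of that list) were lower at day 6, and 45 were higher. Across 12969 genes, which share the same scaling and background offsets, the 2 differences had a Pearson correlation of 0.81 and a Spearman correlation of 0.76.

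The other 2 pairs of fractions showed how far the difference was met without EPO alone. The IL-3/GM-CSF pair had 10.5% of 14085 genes at least 2-fold higher and 15.4% lower, and the combined pair 14.2% and 13% of 14061. Of the genes higher under EPO 465 (23.9% of them and 31.6% of the other list) were higher in the IL-3/GM-CSF pair, 665 (34.2% and 33.4%) in the combined pair and 385 in both, while 1197 (61.6%) were so in neither, genes not above background there included. Of the members that could be evaluated, 28.0% of 1661 were higher in the IL-3/GM-CSF pair and 40.5% of 1640 in the combined pair. Of the lower genes 1093 (49.6% and 50.3%) were lower in the IL-3/GM-CSF pair and 1088 (49.3% and 59.3%) in the combined pair. In both pairs 917 were lower (41.6%, and 69.7% of the 1316 genes lower in both). Another 941 (42.7%) were so in neither, beside the 15.4% and 13% of all genes lower in those pairs. Of those that could be evaluated, 54.5% of 2004 were lower in the IL-3/GM-CSF pair and 54.9% of 1982 in the combined pair. Across genes the EPO difference had a Pearson correlation of 0.61 (Spearman 0.44) with the IL-3/GM-CSF pair and 0.68 (Spearman 0.60) with the combined pair over 12969 genes.

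limma was fitted to the 6 day 3 arrays with a fraction difference for EPO and one for the other 2 treatments together, and its error is the disagreement of those 2 treatments, with 1 residual degree of freedom. This tests the same measure in arrays that the rule did not use, though cells of the combined treatment had also received EPO. Of 13685 genes, 1164 (8.51%) were called higher and 1557 (11.4%) lower in Sca1-low cells of the other treatments, at a Benjamini-Hochberg adjusted p of 0.05. Of the EPO members 1718 higher and 2049 lower genes could be tested. 526 of the 1718 were called higher there and 31 lower, and 1028 of the 2049 were called lower and 48 higher. Rhd had a mean difference of 5.94 in the other treatments (limma adjusted p = 0.000308), Klf1 4.54 (0.000372), Mpo -5.40 (0.000308) and Cpa3 -4.67 (0.000349). Kit had -0.48 (0.333) and Gata2 0.31 (0.475) there.

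**Figure D4:**
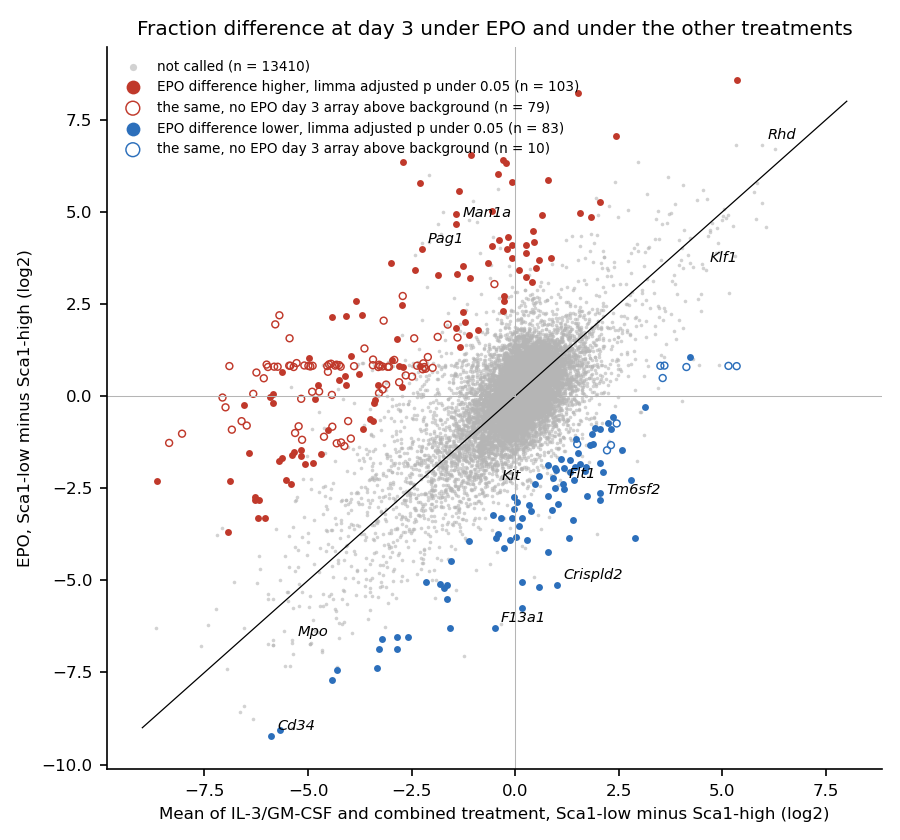
Difference between Sca1-low and Sca1-high cells (log2) under EPO (vertical) against the mean difference in the combined and the IL-3/GM-CSF pair (horizontal) for 13685 genes; the line marks equal differences. Red (182 in all) and blue (93) points had an EPO difference that was called higher or lower by limma, and open ones were above background on neither EPO array, which puts a row of red rings near 0.8; Rhd, Klf1 and Mpo were not called and lie along the line.

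The EPO difference itself was then set against that of the other 2 treatments. limma called 182 genes (1.33%) with a higher and 93 (0.68%) with a lower Sca1-low minus Sca1-high difference under EPO, and 1081 and 1168 at an unadjusted p under 0.05. No gene was called under quantile normalization, where the lowest adjusted p was 0.0597 and 886 and 1596 genes were still called for the other treatments. Of the 182, 79 were above background on neither EPO array, so that their EPO difference is one between background signals, and 60 were genes higher under EPO; of the 93, 76 were genes lower under EPO. The EPO side of this comparison is the pair that chose the members, so the values of members are a description and support nothing. Cd34 differed by -9.23 under EPO (-6.12 by a second probe) against -5.90 under the others. Il5ra, the IL-5 receptor subunit, had -5.74 against 0.15, and Il6st, the shared receptor gp130, -3.53 against 0.09. F13a1, coagulation factor XIII of monocytes and platelets, had -6.29 against -0.49. Flt1, a VEGF receptor, had -2.39 under EPO and 1.14 under the others, with 2.51 in untreated cells and -1.81 at day 6.

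Some genes ran in opposite directions. Of the genes at least 2-fold higher under EPO, 21 (1.08%) were at least 2-fold lower in both other pairs. Of those lower under EPO, 25 (1.13%) were higher in both. Among all 20508 named genes, 1316 were lower and 726 higher in both other pairs, so these opposite genes were few beside that base. Lifr, a receptor of the IL-6 family, was not one of the 21. It had -0.25 in Sca1-low and -4.50 in Sca1-high cells under EPO, and was above background on 4 of 10 arrays. Its difference was -0.51 in the IL-3/GM-CSF pair, with Sca1-low cells not above background. In the combined pair it was -0.26, with neither fraction above background. Man1a, a mannosidase of the Golgi, was higher under EPO (-0.08 in Sca1-low cells, not above background in Sca1-high cells) and was not above background in Sca1-low cells of either other pair, against -3.57 in Sca1-high cells of the IL-3/GM-CSF pair and -2.92 in those of the combined pair. Slfn9, a gene of the Schlafen family, had -1.28 in Sca1-low and 1.45 in Sca1-high cells under EPO, -2.72 in difference (-2.82 by a second probe), against 2.21 and 1.26 in the other pairs. The list median of late neutrophil genes was negative in each pair, at -0.78 under EPO, -4.74 in the IL-3/GM-CSF pair and -4.17 in the combined pair. Single genes of that list did not all share the direction. Under EPO 9 had a positive and 12 a negative difference. Ngp had 3.61 under EPO, against -3.34 in the IL-3/GM-CSF pair and -2.63 in the combined pair.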

How the data were processed

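RNA from sorted EML-C1 cells was labelled with Cy3 and hybridised to 1-colour arrays of 60-base probes, per the labels' protocols. The authors deposited scanner output whose spot intensities are the processed signal of Agilent Feature Extraction 11.0.1.1, per the file headers (protocol GE1_1100_Jul11) and the submitters' processing notes. The deposited series matrix holds the same intensities. The number of arrays limits the precision.

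Spots marked as outliers were dropped, each array's 75th percentile was subtracted from its log2 intensities, and repeat spots were averaged. RefSeq named 27235 of 55681 probes. The brightest probe stood for its gene. Where the dimmer spot was not well above background, a fold is a lower bound against the higher of that spot's signal and the lowest signal well above background on its array. limma 3.58.1 (R 4.3.3) was fitted to genes above background on at least 2 of the 6 day 3 arrays and tested on simulated data. All 10 arrays lay on 3 slides, and both arrays of the EPO pair, with the IL-3/GM-CSF pair, on 1 of them.

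The genes compared, the 36 lists and the tests were chosen with earlier results of these data known. Genes named are the 12 highest and 12 lowest, up to 4 of each list, 12 fixed markers, those next to the threshold and those furthest from the other treatments; others were chosen after their values were seen. No mean signal column was found in the files, so normexp used the median signal. Alternatives were quantile normalization without and after normexp (offset 50), median scaling, the series matrix, the mean of a gene's probes, marked spots kept, stricter filters, a 4-fold threshold and, chosen after seeing the data, spike-in scaling.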

Additional observations from a re-analysis of the deposited data

Results flagged for a closer look

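A test of the difference between treatments marked 182 genes whose Sca1-low minus Sca1-high difference was higher under EPO than under the other 2 treatments and 93 for which it was lower (limma, 1 residual degree of freedom, Benjamini-Hochberg adjusted p under 0.05). The values that follow are EPO minus the mean of the combined and the IL-3/GM-CSF pair, in log2, for the genes of the naming rule. The EPO side is the pair on which the genes higher or lower under EPO were chosen, so the values are a description, and some are differences against spots not above background.

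Among genes at least 2-fold higher in Sca1-low cells under EPO the values were 9.05 for Gdpd2, 8.07 for Galnt3, 7.60 for Plcxd2, 6.70 for Ankrd66, 6.60 for Ngp, 6.43 for Tex48, 6.25 for Pag1, 6.11 for Man1a, 5.89 for Tcp11l1, 5.16 for Gpd1, 4.63 for Lifr and 3.22 for Hba-x. A second probe of Tcp11l1 differed by only 0.27 in the EPO pair. Bst1 (7.88), Ifi202b (7.74) and Bcl2a1d (7.71) were above background on neither EPO array of day 3.

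Among genes at least 2-fold lower in Sca1-low cells under EPO the values were -6.75 for Grip1, -6.15 for Crispld2, -5.89 for Il5ra, -5.80 for F13a1, -5.77 for Ugt1a6a, -5.21 for Olfr361, -4.85 for Tm6sf2, -4.77 for Scn11a, -4.46 for Slfn9, -4.19 for Iqcf4, -4.05 for Rab19, -3.73 for Vmn1r65, -3.62 for Il6st, -3.56 for Il6, -3.54 for Flt1, -3.38 for Slc6a4, -3.37 for Mcpt8, -3.33 for Cd34, -3.28 for Tcf7 and -3.14 for Clec4e. Second probes of Crispld2 and Slfn9 differed by -5.32 and -2.82 in the EPO pair. Those of Cd34 and Tcf7 differed by only -6.12 and -3.94 there, against -9.23 and -7.70 by the probes used. The means of the other pairs for Cd34 and Tcf7 were -5.90 and -4.42 by the probes used.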

How the results depend on the processing

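Of the genes at least 2-fold apart, 1942 were higher and 2205 lower in Sca1-low cells. With normexp and quantile normalization 1001 were higher, with spike-in scaling 522 were higher and 7131 lower, at 4-fold 584 were higher and 963 lower, and with both arrays above background 1333 were lower. Higher genes were 46.8% of all those apart, 6.82% with spike-in scaling and 52.9% with both arrays above background. In the other treatments 1164 genes were called higher by limma, 1824 with median scaling and 581 with spike-in scaling. For EPO minus the other treatments limma called 182 higher and 93 lower. It called 0 and 0 with quantile normalization (1015 and 1245 at an unadjusted p under 0.05), 95 and 273 with spike-in scaling, and 81 and 19 among genes above background on at least 2 of the 10 arrays. The median of erythroid transcription factors turned to -0.17 with spike-in scaling. No named gene past 2-fold changed sign in the settings run for single genes, but spike-in scaling was not one of them. It lowers every difference by 1.20, which turns higher genes with a smaller difference negative, such as Ranbp10 (1.0001). The cause of these changes was not tested.

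No paired analysis was possible because each group has 1 array, so no replicate number pairs samples. The limma fit has a term for each treatment, which keeps its fractions together. Signal over background limits the dim side: 445 higher and 872 lower genes have only a bound there.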

Other observations

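Probes that no gene table named also differed. Of 12372 such probes above background in either EPO fraction, 2380 (19.2%) were at least 2-fold higher in Sca1-low cells and 1824 (14.7%) lower. Of these, 6327 probes cover mm9 regions without a gene name, and 1292 of them (20.4%) were higher and 920 (14.5%) lower.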
